A study of Caenorhabditis elegans with 3 samples.

Results

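The mitochondrial ribosome genes of Caenorhabditis elegans were taken here as all protein-coding genes named mrpl- or mrps- with a number, and their promoters were searched for peaks of LIN-15B. The rule gave 69 genes of 19973, with 41 mrpl and 28 mrps genes, in the Ensembl annotation. The peaks come from chromatin immunoprecipitation and sequencing (ChIP-seq) of whole L1 larvae of mixed sex. The labels give 1 group of 3 biological replicates and no second condition. All animals were of strain OP184, with the unc-119(tm4063) III allele and the transgene wgIs184, an inserted lin-15B with an eGFP tag. A note on replicate 3 places a GFP-FLAG tag at the C-terminus. Replicates 1 and 2 came from a stock centre (CGC) and replicate 3 from the laboratory's own stock. The antibody label names lin-15B and the sample descriptions name the eGFP fusion, so whether the peaks show the tagged product alone or LIN-15B in general cannot be told apart. The larvae were taken whole, and a peak does not tell in which cells LIN-15B lay on a gene.

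Mitochondrial ribosomes translate the few messages of the mitochondrial genome, most of which encode subunits of the respiratory chain. Their proteins are encoded in the nucleus, made in the cytosol and imported. The mrpl genes are named for the large subunit and the mrps genes for the small one, although the mammalian proteins named MRPS30 and MRPS18A sit in the large subunit. Some of the proteins descend from bacterial ribosomal proteins and others were added in mitochondria. In the worm, knockdown of mrps-5 is known for extending lifespan. LIN-15B is a DNA-binding protein of the synMuv B class, genes known for repressing germline genes in somatic cells together with the retinoblastoma-like LIN-35.

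A consistent peak is a series-wide peak whose ranks passed an irreproducible discovery rate (IDR, the expected share of irreproducible peaks) of 0.05 in each of the 3 pairs of replicates, and 926 peaks did. A gene is called bound where the summit of a consistent peak lay from 500 bp upstream to 200 bp downstream of one of its transcript starts. Each list holds 30000 peaks and includes background, so that a listed peak is not in itself evidence of binding. Rank 1 is the strongest peak of a list by the authors' signal value. The depth of the replicates is unknown, since no read counts come with these lists. Control libraries were not analysed here.

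LIN-15B lay reproducibly at the promoters of 12 of the 69 mitochondrial ribosome genes (17.4%), where 5.26% of all protein-coding genes were bound. The 12 genes are mrpl-49, mrps-7, mrpl-28, mrpl-55, mrpl-45, mrpl-17, mrps-17, mrpl-1, mrps-24, mrpl-47, mrps-25 and mrpl-40, and 11 peaks served them, since mrpl-1 and mrps-24 share 1. Among the large-subunit genes 8 of 41 were bound (19.5%), and among the small-subunit genes 4 of 28 (14.3%). No member lies on the X chromosome, and the share over autosomal genes was 5.79%. These shares were not tested against each other. In each replicate's own 926 strongest peaks, 13.3 ± 1.15 members (SD, n = 3) had a promoter peak, with 14, 12 and 14 in replicates 1, 2 and 3, where 4.74%, 5.23% and 5.72% of all genes had one. Leaving out a replicate leaves only the pair of the other replicates to pass, so a count can only stay or rise. The rise was largest without replicate 1, where 22 members were bound (31.9%) and 9.22% of all genes. Without replicate 3, 15 members were bound and 5.54% of all genes, and the small-subunit count went from 4 to 7. Without replicate 2, 13 members were bound and 5.88% of all genes.

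The DNA under 6 of the 11 peaks is given because these sites carry the 3 strongest members, the promoter that 2 members share, and the letter runs that recur between sites. Each window holds 101 bp around the series-wide summit on ce11, read 5′ to 3′ on the strand of the first-named gene, with every CG dinucleotide in capitals.
mrpl-49: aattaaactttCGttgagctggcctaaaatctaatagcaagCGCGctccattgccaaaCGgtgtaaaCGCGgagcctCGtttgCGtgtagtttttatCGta
mrps-7: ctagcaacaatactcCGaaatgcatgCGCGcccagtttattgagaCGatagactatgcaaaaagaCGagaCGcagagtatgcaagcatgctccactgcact
mrpl-28: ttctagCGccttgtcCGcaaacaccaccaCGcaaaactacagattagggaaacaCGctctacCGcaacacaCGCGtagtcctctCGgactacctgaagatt
mrpl-45: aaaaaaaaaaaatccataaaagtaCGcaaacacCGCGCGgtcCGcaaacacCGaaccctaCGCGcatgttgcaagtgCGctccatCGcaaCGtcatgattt
mrpl-1 and mrps-24: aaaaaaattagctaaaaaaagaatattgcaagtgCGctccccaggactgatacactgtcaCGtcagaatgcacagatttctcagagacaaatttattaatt
mrps-17: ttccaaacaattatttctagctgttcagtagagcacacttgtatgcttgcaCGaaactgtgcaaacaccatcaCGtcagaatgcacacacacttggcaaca
The windows were chrV:12728407-12728507 on the plus strand for mrpl-49, chrIV:14767861-14767961 on the minus strand for mrps-7, chrII:156059-156159 on the minus strand for mrpl-28 and chrIII:1202317-1202417 on the minus strand for mrpl-45. The window of mrpl-1 and mrps-24 was chrIV:7709852-7709952, printed on the minus strand, which is that of mrpl-1. The window of mrps-17 was chrIII:6431895-6431995 on the minus strand. None of the 6 overlapped an annotated exon or UTR of a protein-coding gene.

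The windows of mrpl-45 and mrpl-49 were rich in CG, with 11 and 9 sites, and those of mrps-17 and of the pair mrpl-1 and mrps-24 held 2 each. Over the 11 bound peaks of members the windows had 6.36 ± 3.47 CG sites and a GC content of 43.6% ± 6.9 (SD over 11 windows), where all 756 consistent promoter peaks had 7.88 ± 2.92 and 47.7% ± 7.03. Some letter runs stood in more than 1 of the windows searched (8 of the 11). The run TTGCAAGTGCGCTCC stood at mrpl-1 and mrpl-45, on the same strand relative to the gene, and in 3 of the 756 windows in all. At mrpl-1 and mrps-17 the run TCACGTCAGAATGCACA recurred, which was in 2 of the 756 windows and in 10 promoters of 300 bp genome-wide. The run GTCCGCAAACACC of mrpl-28 and mrpl-45 was in 5 of the 756 windows and in 28 promoters. The shorter word GCAAACAC stood at mrpl-28, mrpl-45 and mrps-17, in 8.07% of the 756 windows and in 2.4% of promoters of 300 bp. These runs were picked after the sequences were seen, so their recurrence was not tested.

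The strongest 3 sites ranked high in each replicate. The promoter of mrpl-49, a large-subunit protein of mitochondria, had a peak of rank 37 in the series-wide list and of ranks 40, 54 and 33 in replicates 1, 2 and 3. That of mrps-7, whose product is a counterpart of a bacterial small-subunit protein, ranked 46 in the series-wide list and 38, 32 and 72 in the replicates. That of mrpl-28, a large-subunit gene with a bacterial counterpart, ranked 52 in the series-wide list and 51, 39 and 65 in the replicates. The mean ranks were 42.3 ± 10.7, 47.3 ± 21.6 and 51.7 ± 13 (SD, n = 3), so their order is not told apart from the spread between replicates. Their largest IDR over the 3 pairs was 2.33e-07 for mrpl-49, 4.64e-07 for mrps-7 and 5.95e-07 for mrpl-28.

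The next group lay among the first 500 peaks of each list. The peak of mrpl-55, a mitochondria-specific large-subunit gene, ranked 140 in the series-wide list and 186, 167 and 105 in replicates 1, 2 and 3. The peak of mrpl-45, whose mammalian counterpart sits by the exit of the peptide tunnel at the inner membrane, ranked 151 in the series-wide list and 146, 127 and 221 in the replicates. That of mrpl-17, a large-subunit gene with a bacterial counterpart, ranked 161 in the series-wide list and 177, 433 and 103 in the replicates. Their mean ranks of 153 ± 42.4, 165 ± 49.7 and 238 ± 173 (SD, n = 3) overlap, and replicate 2 was the weak one for mrpl-17.

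The other 6 bound genes ranked lower, the last of them at 931 in the series-wide list. The peak of mrps-17, a small-subunit gene with a bacterial counterpart, ranked 304 in the series-wide list and 650, 473 and 190 in replicates 1, 2 and 3. The peak shared by mrpl-1, a gene of the stalk by which spent tRNA leaves, and mrps-24 ranked 441 in the series-wide list and 694, 604 and 302 in the replicates. Replicate 1 gave the weakest and replicate 3 the strongest rank at both of these sites. The peak of mrpl-47, whose product belongs to the large subunit, ranked 527 in the series-wide list and 789, 525 and 565 in the replicates. That of mrps-25, a mitochondria-specific small-subunit gene, ranked 898 in the series-wide list and 1187, 930 and 555 in the replicates, and that of mrpl-40, a mitochondria-specific large-subunit gene, 931 and 902, 698 and 1480. The last pair lay nearest to the threshold among the bound members, with a largest IDR of 0.00542 and 0.0113, and mrpl-40 was not bound at an IDR of 0.01. The plot of ranks by list sets the bound genes beside the 10 unbound genes with a promoter peak in each of the 4 lists.

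**Figure D1:**
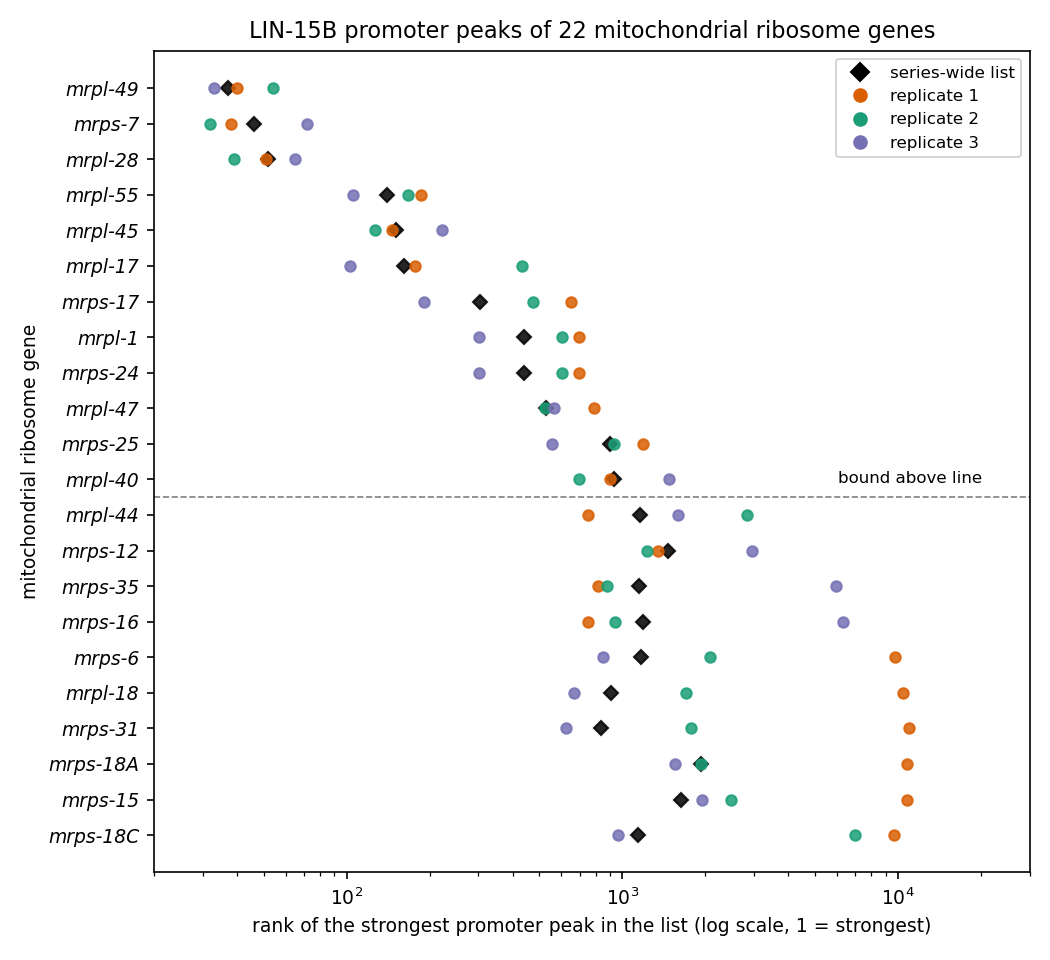
Rank of the strongest promoter peak in the series-wide list and in each of 3 replicates (horizontal log axis, 1 is the strongest) for the 12 bound mitochondrial ribosome genes, above the dashed line, and the 10 unbound ones with a peak in all 4 lists. The 3 leading genes lie between rank 32 and rank 72 in every replicate, and several unbound genes lie near rank 10000 in replicate 1.

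Bound genes were found among proteins of both origins. Of 43 members with a bacterial counterpart 7 were bound (16.3%), and of 26 mitochondria-specific members 5 were (19.2%). The classes follow the mammalian nomenclature and were drawn up after the peaks were seen, so no test was made. Chromosome IV held 5 of the 12 bound genes among its 11 members, with mrpl-1 and mrps-24 at a shared peak. Of all genes on this chromosome 5.73% were bound. The other bound members lay on chromosomes I, II, III and V, with 2 of 15, 1 of 11, 3 of 22 and 1 of 10 members bound, where 8.3%, 4.99%, 9.39% and 3.02% of all genes were.

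Of the unbound members, 10 had a promoter peak in all 4 lists and failed in at least 1 pair of replicates. At 5 of these replicate 1 was far weaker than the others. The peak of mrps-31, a mitochondria-specific small-subunit gene, ranked 839 in the series-wide list and 10924, 1766 and 626 in replicates 1, 2 and 3, and that of mrpl-18, a large-subunit gene, 908 and 10418, 1694 and 665. Those of mrps-6, mrps-15 and mrps-18A likewise ranked 9766, 10764 and 10790 in replicate 1, with 2079, 2476 and 1933 in replicate 2 and 849, 1949 and 1557 in replicate 3. The IDR of replicates 2 and 3 alone was 0.00491 for mrps-31, 0.00429 for mrpl-18, 0.00939 for mrps-6, 0.0204 for mrps-15 and 0.00988 for mrps-18A. At mrps-18C replicates 1 and 2 were both weak, with ranks of 9620 and 6994 against 962 in replicate 3, and it passed in no pair.

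At mrps-16 and mrps-35, both small-subunit genes, replicate 3 was the weak one. The ranks in replicates 1, 2 and 3 were 747, 938 and 6325 at mrps-16 and 812, 876 and 5951 at mrps-35. Replicates 1 and 2 gave them an IDR of 0.00251 and 0.00229. The other 2 failed in 1 pair each. For mrps-12, a gene of the decoding site, the ranks were 1346, 1224 and 2939 and the pair of replicates 1 and 3 gave an IDR of 0.0625, and mrps-12 was bound at an IDR of 0.1. For mrpl-44 the ranks were 752, 2841 and 1596 and the pair of replicates 1 and 2 gave 0.156, and mrpl-44 was not bound at an IDR of 0.1.

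Of the other 47 unbound members, 35 had a promoter peak in 1 to 3 lists and 12 had none. In replicates 2 and 3 but not in replicate 1 a peak was listed for 9 members, mrpl-2, mrpl-9, mrpl-16, mrpl-19, mrpl-20, mrpl-34, mrpl-36, mrps-10 and mrps-18B. Their strongest was mrpl-9, at rank 1357 in the series-wide list and 1174 and 1177 in replicates 2 and 3. Replicate 3 alone listed 12 members, mrpl-11, mrpl-13, mrpl-32, mrpl-35, mrpl-38, mrpl-39, mrpl-41, mrpl-48, mrpl-54, mrps-9, mrps-14 and mrps-28, led by mrps-9 at rank 1048. Replicate 2 alone listed 6, mrpl-42, mrpl-50, mrps-2, mrps-21, mrps-30 and mrps-34, led by mrps-21 at rank 1704, and replicate 1 alone listed 2, mrpl-46 and mrpl-53, at 17492 and 18042. Replicates 1 and 2 listed mrpl-24, mrps-5 and mrps-33, replicates 1 and 3 listed mrpl-22 and mrps-26, and mrps-23 was in the series-wide list alone. At mrps-5, the gene known from lifespan studies, the peaks ranked 29753 in replicate 1 and 12775 in replicate 2.

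Among all genes, too, peaks of this middle range were listed least often in replicate 1. Of the genes whose strongest series-wide promoter peak ranked beyond 1000 and up to 3000, 67.9%, 88.1% and 95.8% had a listed promoter peak in replicates 1, 2 and 3. For the 18 members in that range the counts were 8, 14 and 18. None of these 18 was bound, and of all 1190 genes in the range 82 were. A series-wide rank of 1000 or better was reached by 14 members and by 5.85% of all genes, and all 14 of these members were listed in each replicate and 12 were bound, as were 969 of all 1168 genes there. Over all ranks, 42 members had a promoter peak in the series-wide list, against 34% of all genes. Then 29, 40 and 45 members had a promoter peak in replicates 1, 2 and 3, against 30.3%, 33% and 33.8% of all genes.

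The number of members grew as more peaks of a replicate were kept. Among the 500 strongest peaks of a replicate, 6, 7 and 9 members had a promoter peak in replicates 1, 2 and 3 (3.08%, 3.13% and 3.31% of all genes). Among the 2000 strongest, the counts were 16, 22 and 30 (6.47%, 8.99% and 10.2% of all genes). The mean counts were 7.33 ± 1.53 at 500, 14.3 ± 0.577 at 1000 and 22.7 ± 7.02 at 2000 (SD, n = 3). At 1000, 4.91%, 5.57% and 6.06% of all genes had a promoter peak in replicates 1, 2 and 3. The spread between replicates was thus smaller at 1000 than at 500, and larger at 2000.

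**Figure D2:**
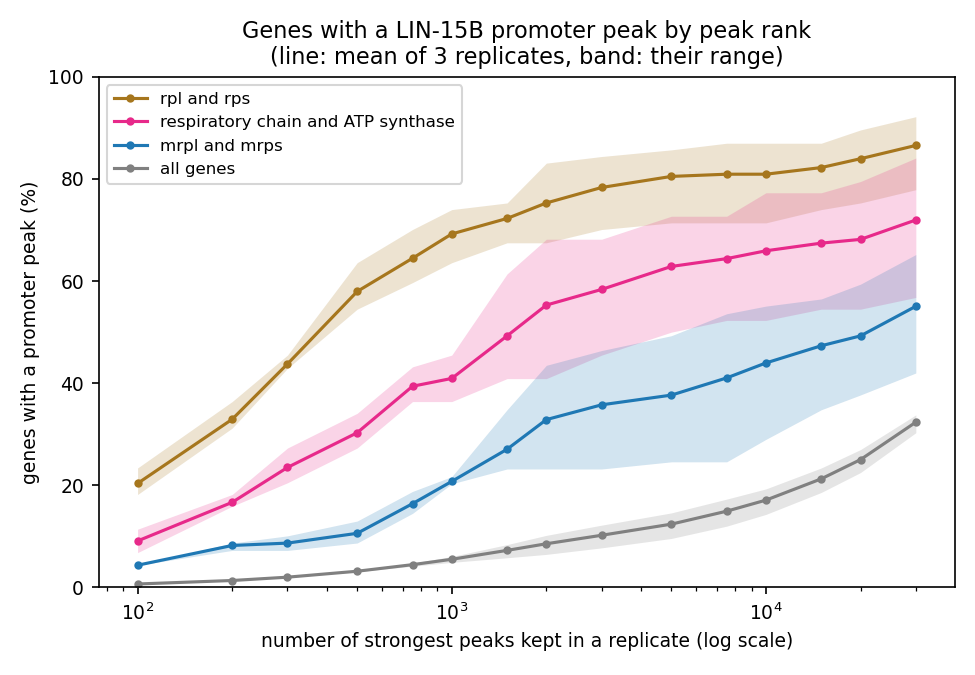
Percentage of genes with a promoter peak (vertical axis) among the strongest peaks of a replicate, by the number of peaks kept (horizontal log axis), for mitochondrial ribosome genes, cytosolic ribosome genes, respiratory chain genes and all genes; lines are means of 3 replicates and bands their range. At 2000 peaks the mitochondrial ribosome genes stand at 32.9%, and their band widens beyond 1000 peaks.

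Beside the related gene groups, the mitochondrial ribosome had a lower share bound than the cytosolic ribosome and the respiratory chain. Of the cytosolic ribosomal genes 31 of 46 rpl genes (67.4%) and 20 of 31 rps genes (64.5%) were bound, led by rpl-20 and rpl-12 and by rps-12 and rps-19. Of 44 nuclear genes of the respiratory chain and ATP synthase 19 were bound (43.2%), led by cox-6B of cytochrome oxidase and atp-1 of the ATP synthase, with mean ranks of 13.3 ± 7.37 and 45 ± 18.2 (SD, n = 3). Of 21 partners in mitochondrial gene expression 3 were bound (14.3%): tufm-2, an elongation factor gene with a mean rank of 606 ± 95.2, ears-2, a tRNA synthetase gene at 636 ± 246, and gfm-1, an elongation factor gene at 1240 ± 1020. Without replicate 1 the last count was 7. In the replicates' own 926 strongest peaks the shares were 19.3% ± 1.67 for the mitochondrial ribosome, 71.7% ± 6.52 for rpl, 63.4% ± 1.86 for rps, 40.2% ± 3.47 for the respiratory chain and 14.3% ± 4.76 for the partners (SD, n = 3). These groups were set side by side with no test between them.

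The gap to the cytosolic ribosome depends on the size of the promoter. With 250 bp upstream to 100 bp downstream, 11 of 69 mitochondrial ribosome genes were still bound (15.9%), all among the 12. The rpl count was then 8 of 46 and the rps count 5 of 31, and 3.52% of all genes were bound. Of the 11, mrps-25 had its series-wide summit at the edge, 250 bp upstream, and its replicate summits beyond it, at 368, 266 and 253 bp. The respiratory chain count was then 11. The median distance of the summit upstream of the start was 163 bp at the 12 bound members, 200 bp at the bound respiratory chain genes, 291 bp at the 51 bound rpl and rps genes and 182 bp at all bound genes. Annotated starts of worm genes often mark the site of trans-splicing and not the start of transcription, and how that bears on these distances was not tested.

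Within the family the summit held its place between replicates at most genes. Summit positions varied between replicates by an SD of 1 to 63 bp, with a median of 11 bp (n = 3 replicates for each of 12 genes). A bound peak has to overlap a peak of each replicate, so some agreement in position follows from the call. The same spread is not given for other bound genes. At mrpl-45 the summit lay 359 bp upstream in the series-wide list and 361, 360 and 359 bp upstream in replicates 1, 2 and 3. At mrps-7 it lay 181 bp upstream in the series-wide list and 172, 181 and 181 bp upstream. The exception was mrps-25, where the strongest promoter peak of replicate 1 lay 368 bp upstream and those of replicates 2 and 3 266 and 253 bp upstream. When replicate peaks were matched by summits within 100 bp, mrps-25 was not bound, mrps-12 was, and the count stayed at 12. At mrpl-47 the series-wide summit lay 7 bp downstream of the start, inside the first exon, and at the other 11 genes upstream.

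**Figure D3:**
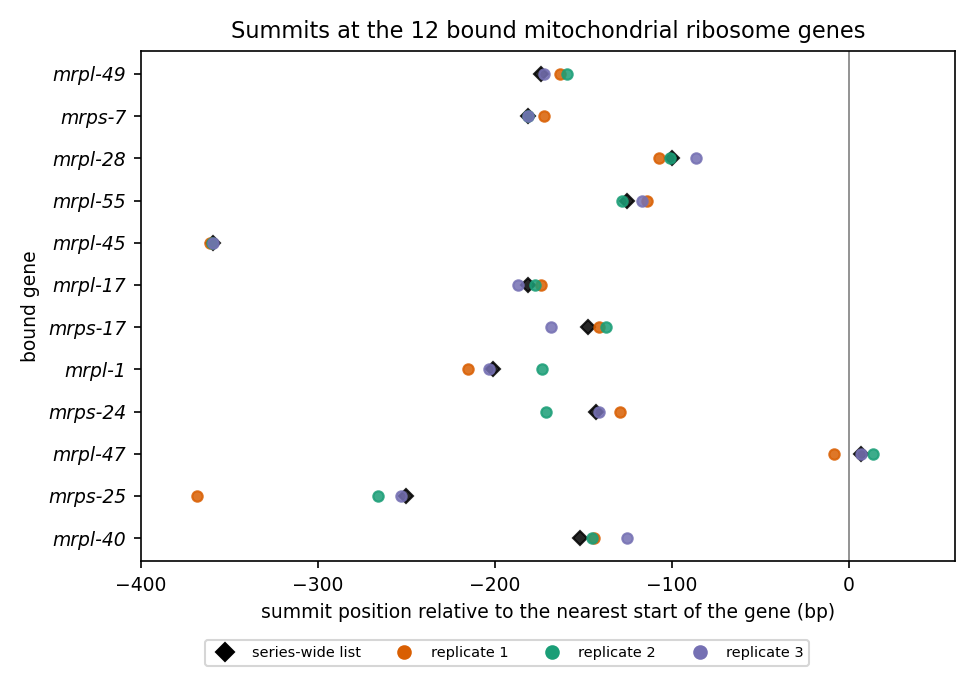
Position of the summit relative to the nearest annotated start of each bound gene (horizontal axis in bp, negative is upstream) in the series-wide list and in 3 replicates. Most summits lie between 100 and 250 bp upstream, with mrpl-45 farther out, mrpl-47 at the start and replicate 1 apart at mrps-25.

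Like many bound genes, many bound members shared their peak with another gene. Of the 12, 9 had the summit in the promoter of another gene on either strand (75%), as had 599 of the 1051 bound genes (57%). Each of the 9 had such a gene on the other strand, and mrpl-1 and mrps-24 count for each other. With the promoter of 250 bp upstream to 100 bp downstream, 5 of the 11 bound members shared their peak. The share over all bound genes is not given at that size, so this count has no background beside it. The partner of mrpl-49 is rpl-28, a gene of the cytosolic large subunit that starts 345 bp from the summit on the far side. The peak of mrps-7 is also that of Y57G11C.3, and that of mrpl-45 also that of Y119D3B.12. The peak of mrpl-17 is shared with vbh-1, an RNA helicase gene, that of mrps-17 with txdc-9, a gene with a thioredoxin domain, that of mrps-25 with Y55F3AM.13 and that of mrpl-40 with F54C4.4. A peak between divergent genes does not tell which of them it belongs to. The member was the nearest gene for 9 of the 12, and the nearer gene was Y119D3B.12 at mrpl-45, F54C4.4 at mrpl-40 and mrps-24 at mrpl-1. With the nearest start alone, 9 members were bound and 3.78% of all genes, and the large-subunit count was 5. At mrpl-28, mrpl-55 and mrpl-47 no other gene had the summit in its promoter.

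The shared site of mrpl-1 and mrps-24 joins a large-subunit and a small-subunit gene. Its summit at position 7709902 of chromosome IV lay upstream of both, 143 bp from the start of mrps-24 (WBGene00023487) and somewhat farther from that of mrpl-1 (WBGene00017997), in the intergenic DNA between them. The gene emc-6, of the membrane insertion complex of the endoplasmic reticulum, overlaps the start of mrpl-1 on the same strand and starts 166 bp from the summit. The site can thus belong to any of 3 genes. The summit window held the letters GAGCGC and 2 CG sites at a GC content of 34.7%.

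**Figure D4:**
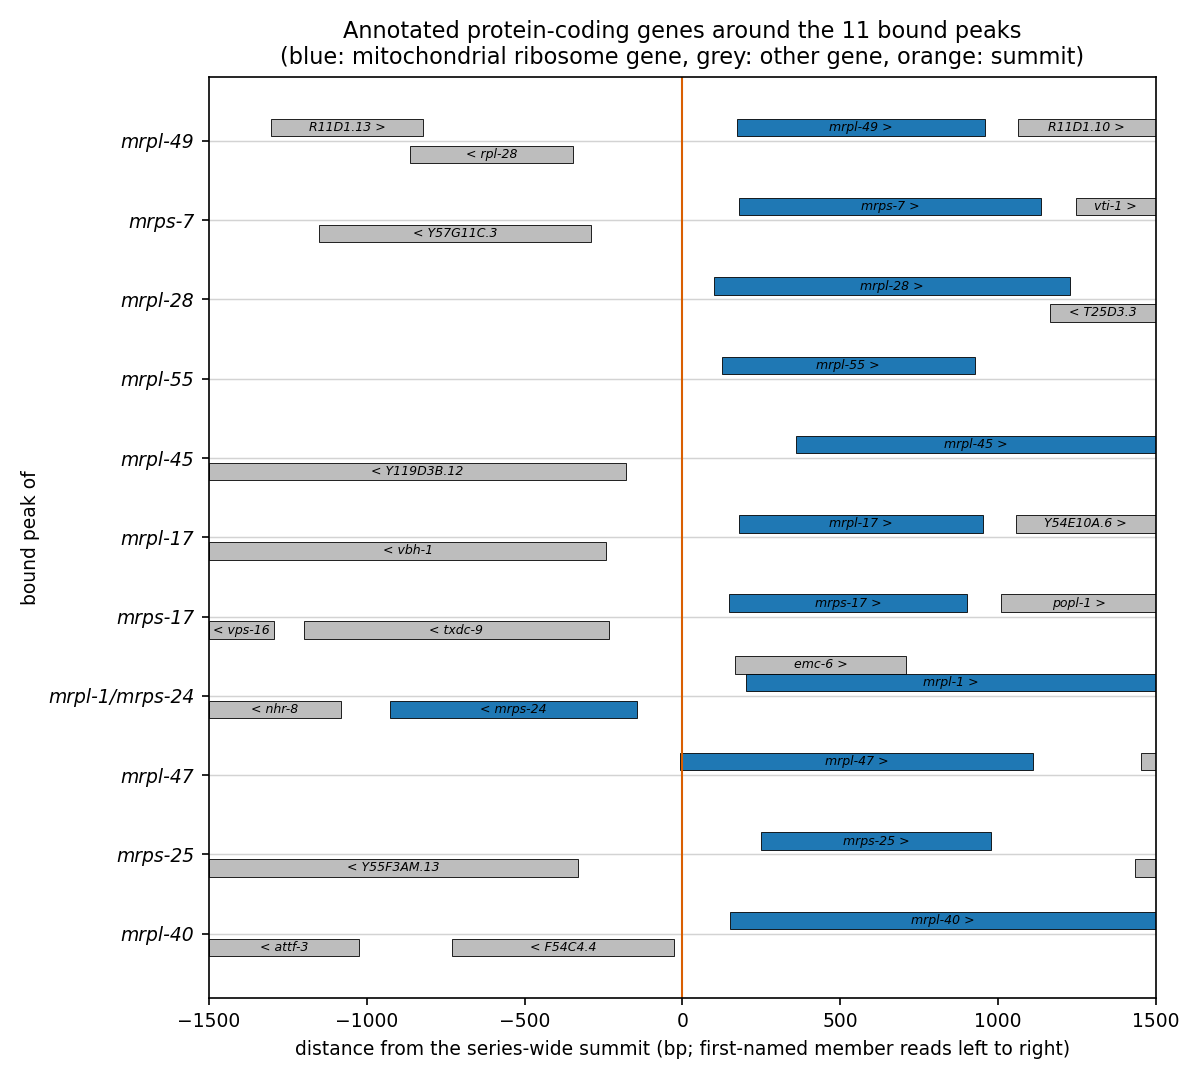
Annotated protein-coding genes within 1500 bp of the 11 bound peaks, drawn to scale (horizontal axis, distance from the series-wide summit in bp); genes above a line read left to right as the first-named member does, and genes below it the other way. At 8 of the 11 peaks a gene on the other strand starts on the far side of the summit, and at mrpl-1 and mrps-24 both sides hold a member.

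Many mitochondrial ribosome genes lie inside rows of genes on 1 strand, and in the worm such rows are often operons with a single promoter at the head. With gaps of at most 500 bp between neighbours, 28 of the 69 members (40.6%) were second or later in a row, where 20.5% of 19251 genes placed were. Of the 41 members that stood alone or first, 11 were bound (26.8%), against 5.95% of all such genes. Of the 28 later ones 1 was bound (3.57%), mrpl-1 behind emc-6, against 3.04% of all later genes. The rows were drawn from the annotation by distance, and which of them are operons was not tested.

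Several unbound members lay in a row whose head had a bound promoter. Of the 28 later members 13 had a bound head (46.4%), and of all later genes 13.9% had. Apart from mrpl-1, these were mrpl-4, mrpl-13, mrpl-32, mrpl-42, mrpl-48, mrpl-54, mrps-2, mrps-21, mrps-26, mrps-27, mrps-30 and mrps-33. The count of unbound members behind a bound head was 12 here, 9 with gaps of at most 200 bp and 11 with gaps of at most 1000 bp. The share of all later genes is given for gaps of at most 500 bp only, so the other counts have no background beside them. The head of the row of mrpl-32 is rpn-3, a proteasome subunit gene, whose peak ranked 82, 137 and 53 in replicates 1, 2 and 3. The head of the row of mrps-26 is atp-2, which encodes the beta subunit of the ATP synthase, with ranks of 307, 207 and 180. Both mrps-2 and mrpl-4 lie behind natc-1, a gene of N-terminal acetylation, with ranks of 223, 380 and 181.

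The other heads were also bound in each pair of replicates. The row of mrps-27 begins with uev-1, a ubiquitin conjugation gene with ranks of 197, 223 and 266, and that of mrpl-54 with clsp-1, a claspin gene with ranks of 255, 126 and 251. The row of mrps-30 begins with eif-3.E, a translation initiation gene with ranks of 316, 168 and 865, and that of mrpl-48 with vps-37, an endosomal sorting gene with ranks of 402, 316 and 501. The heads of mrps-21, mrps-33, mrpl-42 and mrpl-13 were F29B9.11, F21D5.7, znf-706 and F13G3.7, with mean ranks of 423 ± 168, 640 ± 126, 1200 ± 478 and 1160 ± 189 (SD, n = 3). Counting members that were bound or lay behind a bound head gave 24 of 69 (34.8%), against 8.08% of genes placed. In the other direction, mrpl-47 heads a row that holds let-363, the gene of the TOR kinase, and mrps-7 heads one that holds vti-1, a SNARE gene.

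The 12 members with no listed promoter peak were mrpl-4, mrpl-10, mrpl-12, mrpl-15, mrpl-21, mrpl-23, mrpl-30, mrpl-37, mrpl-51, mrps-11, mrps-22 and mrps-27. Of these 7 were second or later in a row, and mrpl-4 and mrps-27 had a bound head. At 3 of them a consistent summit lay just outside the promoter as defined: 528 bp upstream at mrpl-12, 611 bp at mrpl-15 and 655 bp at mrpl-37. The farthest bound summit inside it was that of mrpl-45 at 359 bp. With 1000 bp upstream, these 3 and mrps-21 (939 bp) were bound as well, which made 16 members, and 6.2% of all genes.

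The starts of mitochondrial ribosome genes had more CpG for their base composition than those of all genes, whether bound or not. In 300 bp at the outermost start of each gene, 250 bp before and 50 bp after it, the observed CpG count over the expected one came to 1.34 ± 0.351 over 69 members and 1.06 ± 0.387 over all genes (SD over genes). It was 1.41 ± 0.364 over the 12 bound and 1.32 ± 0.35 over the 57 unbound members, and 1.42 ± 0.356 over all bound genes. The related groups had similar values, with 1.39 ± 0.397 over the 77 rpl and rps genes and 1.4 ± 0.351 over the 44 respiratory chain and ATP synthase genes. The SDs overlap throughout, and the ratio of bound members ran from 0.696 at mrpl-47 to 1.98 at mrpl-45. The GC content was 32.8% ± 4.28 over members and 34.8% ± 5.3 over all genes. No test was made between these groups.

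**Figure D5:**
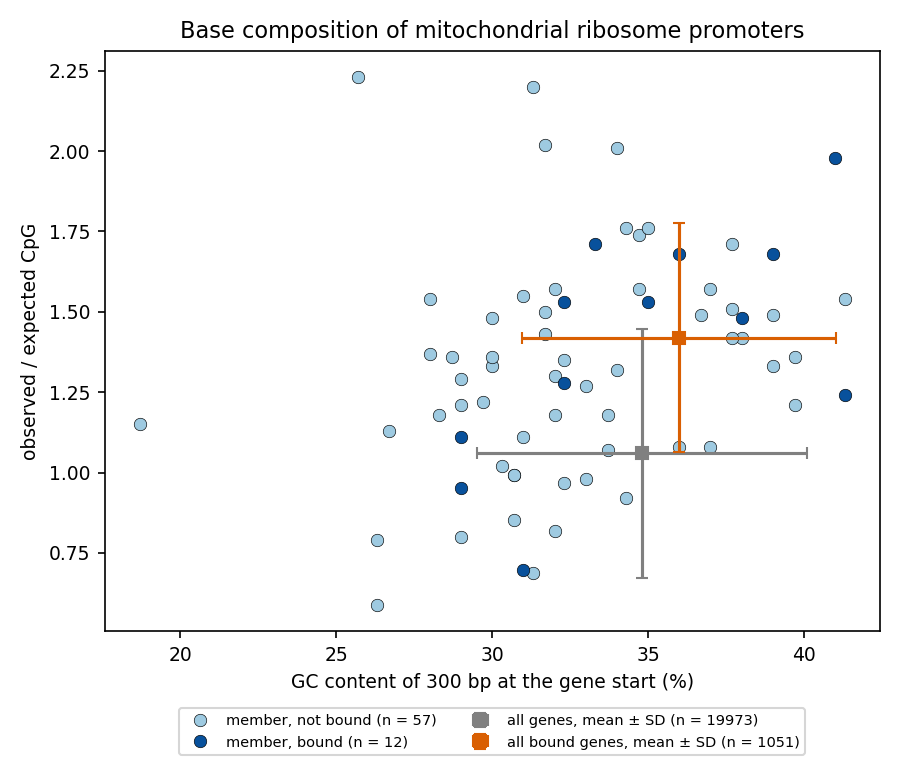
GC content (horizontal axis, %) and ratio of observed to expected CpG (vertical axis) of 300 bp at the start of each mitochondrial ribosome gene, bound (dark, n = 12) or not (light, n = 57), with the mean ± SD of all genes and of all bound genes. Bound and unbound members overlap on both axes, and members sit mostly above the mean CpG ratio of all genes, 1.06.

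Of the motifs searched on both strands of these 300 bp, the 6-mer GAGCGC had the widest gap in share between bound and unbound members. It stood in 6 of 12 bound members (50%), in 6 of 57 unbound members (10.5%), in 23.7% of all bound genes and in 5.45% of all genes. The bound members with it were mrpl-1, mrpl-45, mrpl-47, mrpl-49, mrpl-55 and mrps-24, and the windows of mrpl-1 and mrps-24 overlap the same DNA. In a shorter window that ended at the start, GAGCGC stood in 3 of 12 bound (25%) and 6 of 57 unbound members (10.5%), and the widest gap was that of the CHR-like motif, with 50% and 70.2%. The E2F-like motif was searched as TTCCCGC and also, with other middle letters, as TTCGCGC, then as the form TTGCCGC and lastly in the form TTGGCGC. It stood in 3 of 12 bound and 9 of 57 unbound members, and in 9.2% of all genes. The GATA-like motif was searched as AGATAA and also, with other end letters, as AGATAG, then as the form TGATAA and lastly in the form TGATAG. It stood in 4 of 12 and 30 of 57, and in 54.5% of all genes. The CHR-like motif, searched as TTCGAA and also in the form TTTGAA, stood in 9 of 12 and 44 of 57 (68.9% of all genes), GAGAGA in 3 of 12 and 12 of 57 (21.8%) and the E-box CACGTG in 0 of 12 and 5 of 57 (5.82%). The word GAGCGC can overlap an E2F-like match on the other strand at the letters GCGC. A match is a description of these letters and not a site. Where the word GAGCGC was first taken from is not recorded, so its share at bound genes is no independent evidence and was not tested.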

How the data were processed

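LIN-15B ChIP-seq peak lists of 3 replicates of 1 group, and 1 series-wide list from the alignments of all 3, were used on ce11. Per the deposited file records, each list derives from its alignments and a further file whose content the records do not describe, and holds peaks and background meant for IDR. No aligner or peak caller was given in the sources used. The deposited signal value of each peak (authors' scale) served to rank peaks within a list, and the deposited q value, treated as a score since 26773 series-wide values lie below 0, was not used. The 4 lists on ce10 were not used. Replicate peaks were matched to series-wide peaks by 1 bp or more of overlap, taking the strongest. A copula mixture for the IDR was fitted to the 6511, 7012 and 6127 peaks matched in replicates 1 and 2, 1 and 3, and 2 and 3, of which 1059, 1091 and 1828 passed at 0.05. Tied strengths were ordered at random with a fixed seed for the fit, and printed ranks give ties the best rank. Of the 30000 peaks of a list, 3606, 16676 and 3681 had a tied strength in replicates 1, 2 and 3, and 346 in the series-wide list. Printed ranks of replicate 2 are thus the most affected by ties. Sequences were read from the RefSeq genome WBcel235 (ce11), whose chromosomes hold all peaks. Python 3.11.15, numpy 2.4.6 and scipy 1.17.1 were used. The fit was checked on values simulated without ties from the fitted mixture, which does not test whether the mixture suits these lists. Matching and assignment were checked by direct search. Of the comparison lists, gfm-2 and wars-2 had no match and were left out. Genes were named by a rule: all bound members, the 10 unbound ones with the best mean rank among those listed in every replicate, partners at shared peaks, bound heads of rows and the leading bound genes of each other list. The members and lists were chosen with earlier results of these data known. The replicates are labelled biological. Alternatives covered the IDR threshold, matching, replicates, promoter size, start choice and tie order.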

Additional observations from a re-analysis of the deposited data

How the results depend on the processing

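The 14 alternatives to the calls, and those to windows and gaps, gave 437 values over 40 results, of which 387 kept their call or, for counts, stayed within 1.5 times the main value. Counts and calls of this kind have no direction that could reverse. Of 308 recomputed calls of the 22 named members, 280 were kept, 6 went from bound to unbound and 22 from unbound to bound. With a pass in any pair, 24 members were bound (13 mrpl, 11 mrps), with 7 partners and 1932 of all genes. Leaving out 1 replicate at a time gave 13 to 22 members, 8 to 13 mrpl, 4 to 9 mrps, 3 to 7 partners and 1107 to 1842 genes, highest without replicate 1. With the promoter of 250 bp upstream to 100 bp downstream, 8 rpl, 5 rps and 11 respiratory chain genes were bound, and 5 bound members shared their peak. With the nearest start alone, 5 mrpl, 20 rpl and 10 rps genes were bound. The mean count of members in a replicate's strongest peaks was 7.33 at 500 and 22.7 at 2000. Among members first in a row or alone, a restriction chosen after seeing the data, 26.8% were bound. The cause of these shifts was not tested. No paired analysis was possible because the labels give 1 group. Depth is unknown, so no interval on it was computed, and 3 replicates limit every SD given.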
